A study of Mus musculus with 63 samples.

Results

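Voltage-gated sodium and calcium channels and potassium channels were described here across neural stem cells (NSC), basal progenitors (BP) and newborn neurons (NBN) of the embryonic dorsal cortex of Ski knock-out mice. The members were the genes whose symbol begins with Kcn followed by a letter, is Scn with a number and a or b, or begins with Cacna, Cacnb or Cacng, and that reached at least 1 TPM (transcript abundance normalised for length and for the library total) in at least 3 libraries. Of 134 matching genes, 106 met that level, among 15231 genes tested and 23078 in the table. The members were therefore chosen by their own TPM, and their presence is no result. Their direction between groups was not part of the rule. The third-highest TPM of a gene decides whether it is a member: just inside lay Kcnh6 with 1.04, Kcnj13 with 1.17 and Kcns3 with 1.17 TPM, and just outside Kcna5 with 0.955, Kcnj14 with 0.947 and Kcnmb1 with 0.839 TPM. The 106 members have 105 symbols, because Kcnb2 is listed under 2 identifiers, and reads of that gene may be split between them. The sodium channel gene Scn2a is listed under its older symbol Scn2a1, is outside the rule, and is counted in no member total.

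All 63 libraries came from Ski knock-out embryos on the C57Bl/6 background, without a wild type library, so no value here describes an effect of losing Ski, a transcriptional co-repressor. NBN were sorted by a Tbr2::GFP reporter at E15.5 to E18.5 (13 libraries), NSC by a Hes5::GFP reporter at E11.5 to E18.5 (26 libraries), and BP by Tbr2::GFP at E12.5 to E18.5 (24 libraries). What separated BP from NBN among Tbr2::GFP cells is not stated in the sources used here, nor which part of Ski was deleted. Its transcripts were measured at 36.7 to 53.1 TPM in NBN, 23.0 to 50.1 TPM in NSC and 17.2 to 37.4 TPM in BP, which does not check the genotype without the deleted part. The sorts were checked against marker genes: 7 of 8 neural stem cell markers rose in NSC over BP, and 6 of 6 basal progenitor markers fell in NBN over BP. Other checks separated the types less. Only 2 of 6 basal progenitor markers were lower in NSC over BP, and 1 of 8 neuron markers rose in NBN over BP and 1 of 8 in NBN over NSC. Basal progenitor markers summed to 375 to 1891 TPM in NSC libraries and 1199 to 1833 TPM in BP libraries, which overlap. All embryos are labelled female, but Y-linked transcripts were present in part of the libraries. Nothing in the labels says that the 2 to 6 libraries of a group came from separate embryos, so a p-value measures the spread between libraries, which may be technical. In these bulk samples, fewer cells of a type and less RNA per cell cannot be told apart.

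Ion channels are pore proteins that let selected ions cross the cell membrane. Voltage-gated sodium channels carry the rise of the action potential, calcium channels couple voltage to calcium entry, and potassium channels set the resting potential and end each spike. Pore subunits work with accessory subunits that change their trafficking and gating. Electrical excitability is acquired while cortical cells turn from dividing progenitors into neurons, whereas glial cells are known for inward rectifier and leak potassium channels.

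Expression of the family spanned a wide range. Over all 63 libraries, 34 members averaged at least 10 TPM, 54 averaged 1 to 10 TPM and 18 averaged under 1 TPM, and 40 were at 1 TPM or more in every library. Among the highest mean levels were 165.1 TPM for Cacnb3, a calcium channel beta subunit, and 124.5 TPM for Cacng7, a partner of AMPA-type glutamate receptors. Cacng4, another AMPA receptor partner, followed with 83.0 TPM, Cacnb1 with 60.1 TPM, the sodium channel beta subunit Scn3b with 58.4 TPM and the calcium channel subunit Cacna2d1 with 58.1 TPM. The group with the highest mean was an NBN group for 60 members, an NSC group for 20 and a BP group for 26. NBN at E18.5 held the highest mean of 29 members and NBN at E15.5 that of 22. BP at E12.5 held it for 12 and NSC at E18.5 for 10. This ranking of groups was not made over all tested genes, so whether it is particular to channel genes is unknown.

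The summed TPM of the members was higher in NBN than in the progenitor types. It averaged between 1976 and 2162 TPM in the 4 NBN groups. In NSC it averaged 657 TPM at E11.5 (range 508 to 786, n = 3), 1659 TPM at E17.5 and 1415 TPM at E18.5 (range 1210 to 1808, n = 3). In BP it lay between 1251 and 1554 TPM on every day. The NSC sum was thus lowest on the first day, every NBN group mean lay above every NSC and BP group mean, and the NSC means of E15.5 to E17.5, 1461 to 1659 TPM, overlapped those of BP. By subunit class, over all days of each type, which are not the same days, the summed level of the 4 sodium channel beta subunits was 137 TPM in NBN, 43.4 TPM in NSC and 52.8 TPM in BP. That of the 8 calcium channel pore subunits was 207 TPM in NBN, 95.6 TPM in NSC and 110.4 TPM in BP. That of the 4 subunits of the M-current, which restrains repetitive firing, was 268 TPM in NBN, 114.7 TPM in NSC and 150.1 TPM in BP. The 3 calcium channel alpha2delta subunits, which bring the pore to the membrane, summed to 94.7 TPM in NBN, 62.0 TPM in NSC and 120.1 TPM in BP. The BP sum includes E12.5 to E14.5, which NBN lack, and on the shared days none of the 3 was called in NBN over BP (median log2 change 0.18).

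**Figure D1:**
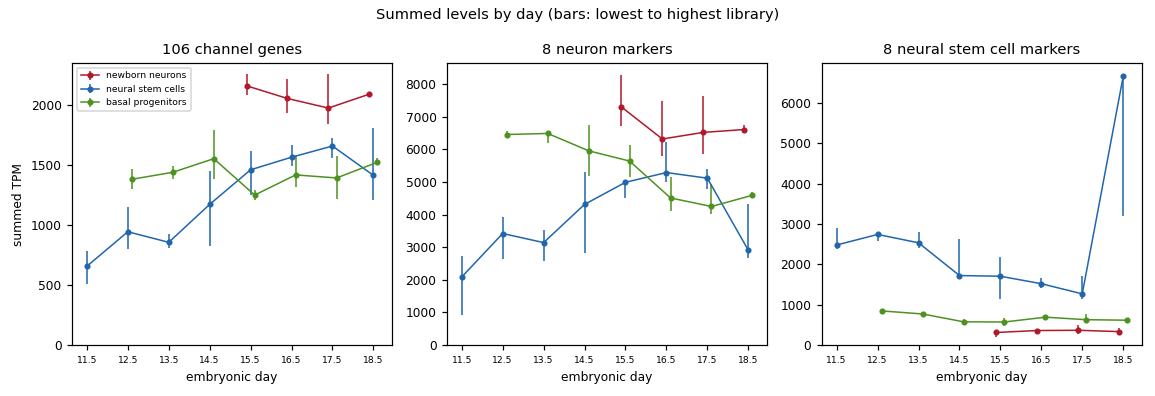
Summed TPM of the 106 channel genes (mean), of 8 neuron markers and of 8 neural stem cell markers (medians) by embryonic day in NBN (red), NSC (blue) and BP (green), with bars from the lowest to the highest library. The channel sum in NSC averages 657 TPM at E11.5 and 1659 TPM at E17.5, and the 4 NBN means lie between 1976 and 2162 TPM.

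Libraries that stood apart touched these sums. NSC E18.5 replicate 1 had a channel sum of 1808 TPM, with 4309 TPM of neuron markers and 3209 TPM of neural stem cell markers, against 1210 and 1228 TPM, 2908 and 2657 TPM, and 6664 and 6655 TPM in replicates 2 and 3. NSC E14.5 replicate 1 had the lowest channel sum of its day, 828 TPM, and 2827 TPM of neuron markers. The neuron markers summed to a median of 2090 TPM at E11.5, 5287 TPM at E16.5 and 2908 TPM at E18.5 in NSC. In BP they summed to 6453 TPM at E12.5 and 4591 TPM at E18.5, and in NBN to between 6316 and 7298 TPM. Neuron markers were therefore present in every sorted type, and their part in the channel values was not tested.

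NBN and BP were compared on the 4 days they share, E15.5 to E18.5, as the mean of the differences in log2(TPM + 1). A gene was called where limma gave an adjusted p (Benjamini-Hochberg) under 0.05 and the log2 change was 1 or more in either direction. Of the 106 members, 23 rose in NBN (21.7%, against a background of 5.75% of all tested genes), and 4 fell (3.77%, against 5.09%). The median log2 change was 0.44 over the members and -0.06 over all tested genes. Of the 23 called higher, 22 had the higher mean in NBN on each of the 4 days, and so had the 4 called lower the lower mean. The calls were made from the same daily differences, here and in the comparisons below, so such counts of days are no separate support. By class, 4 of the 7 gamma subunits and AMPA receptor partners rose and 1 fell, 3 of the 10 Kv2 subunits and silent partners rose, and so did 2 of the 4 sodium channel beta subunits. None of the 6 sodium channel pore subunits that are members was called in either direction.

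Among sodium channel subunits, Scn3b, a beta subunit that modulates gating, was high in NBN. It measured 105 to 136 TPM (median 126) in the 13 NBN libraries, against 28.5 to 60.1 TPM (median 43.3) in the 13 BP libraries of the same days. The ranges did not overlap (log2 change 1.52, SE 0.16, adjusted p = 2.46e-11). The pore subunit gene Scn2a1, which is not a member, measured 10.7 to 36.0 TPM (median 22.0) in NBN, against 1.82 to 7.33 TPM (median 4.24) in BP, with a log2 change of 2.12.

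Among calcium channel subunits, Cacna1e, the pore of R-type channels, measured 12.4 to 57.1 TPM (median 26.9) in NBN, against 2.79 to 11.6 TPM (median 5.86) in BP, without overlap (log2 change 2.04, SE 0.21, adjusted p = 1.00e-11). Cacna1b, the pore of N-type channels that trigger transmitter release, rose by a log2 change of 1.28. Cacng4 measured 124 to 189 TPM (median 146) in NBN, against 33.7 to 57.0 TPM (median 47.4) in BP, again without overlap (log2 change 1.64, SE 0.09, adjusted p = 1.23e-20). Cacng3, another AMPA receptor partner, rose by 2.20. Cacng5, a further member of that group, did the opposite. It measured 1.37 to 6.84 TPM (median 4.99) in NBN, against 3.93 to 25.3 TPM (median 20.4) in BP (log2 change -1.55, SE 0.12, adjusted p = 3.35e-16). Here the ranges overlapped, although NBN had the lower mean on all 4 days.

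The largest rises were in potassium channel genes. Kcnv1, a silent subunit that forms channels only together with Kv2 subunits, measured 2.76 to 21.6 TPM (median 7.27) in NBN, against 0.248 to 1.67 TPM (median 0.439) in BP (log2 change 2.64, SE 0.16, adjusted p = 1.77e-19). Kcnf1, another silent subunit, rose by 1.10. Kcna6, a Shaker-type delayed rectifier, measured 10.6 to 27.2 TPM (median 15.2) in NBN, against 0.911 to 3.10 TPM (median 1.92) in BP (log2 change 2.61, SE 0.16, adjusted p = 5.85e-19). Neither Kcnv1 nor Kcna6 overlapped between the types. The kit kept no strand, and 39.6% of the annotated exon length of Kcna6 lies over another gene, so its reads cannot all be assigned with certainty. That share was 10% or more for 7 of the 105 members found in the annotation. Among them are Kcnj3 (31.1%), Kcnmb4 (31.5%) and Kcnk2 (12.2%), whose values below carry the same limit.

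Kcnq5, an M-current subunit, measured 8.58 to 20.2 TPM (median 13.8) in NBN, against 1.19 to 3.15 TPM (median 1.88) in BP (log2 change 2.34, SE 0.14, adjusted p = 1.37e-19). Kcnma1, the pore of the large-conductance calcium-activated channel, measured 6.36 to 17.0 TPM (median 11.8) in NBN, against 0.788 to 2.98 TPM (median 1.71) in BP (log2 change 2.31, SE 0.17, adjusted p = 3.58e-16). Every NBN library was above every BP library for both genes. Kcnj2, an inward rectifier that steadies the resting potential, measured 0.502 to 15.4 TPM (median 5.55) in NBN, against 0.0655 to 1.00 TPM (median 0.377) in BP, and the ranges overlapped (log2 change 2.01, SE 0.13, adjusted p = 2.31e-18). Kcnab1, a cytoplasmic beta subunit of Kv1 channels, rose by 1.70, and the G-protein-gated inward rectifier subunit Kcnj3 by 1.15.

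Lower in NBN were the accessory subunit gene Kcne1l, the small-conductance calcium-activated channel gene Kcnn3 and the Kv3 pore gene Kcnc2, beside Cacng5. Kcne1l measured 2.45 to 7.71 TPM (median 4.05) in NBN, against 9.67 to 22.7 TPM (median 17.7) in BP (log2 change -1.79, SE 0.15, adjusted p = 1.05e-14). Kcnn3 measured 2.82 to 9.52 TPM (median 4.89) in NBN, against 11.1 to 23.9 TPM (median 18.2) in BP (log2 change -1.54, SE 0.13, adjusted p = 4.11e-15). Neither pair of ranges overlapped. Kcnc2 fell by 1.17 on the log2 scale. Of the 8 neuron markers, 1 rose in NBN over BP, and 8 of the 9 microglia markers rose. The microglia markers summed to 4.54 to 143 TPM in NBN libraries and 2.64 to 17.9 TPM in BP libraries, and their part in these changes was not tested.

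**Figure D2:**
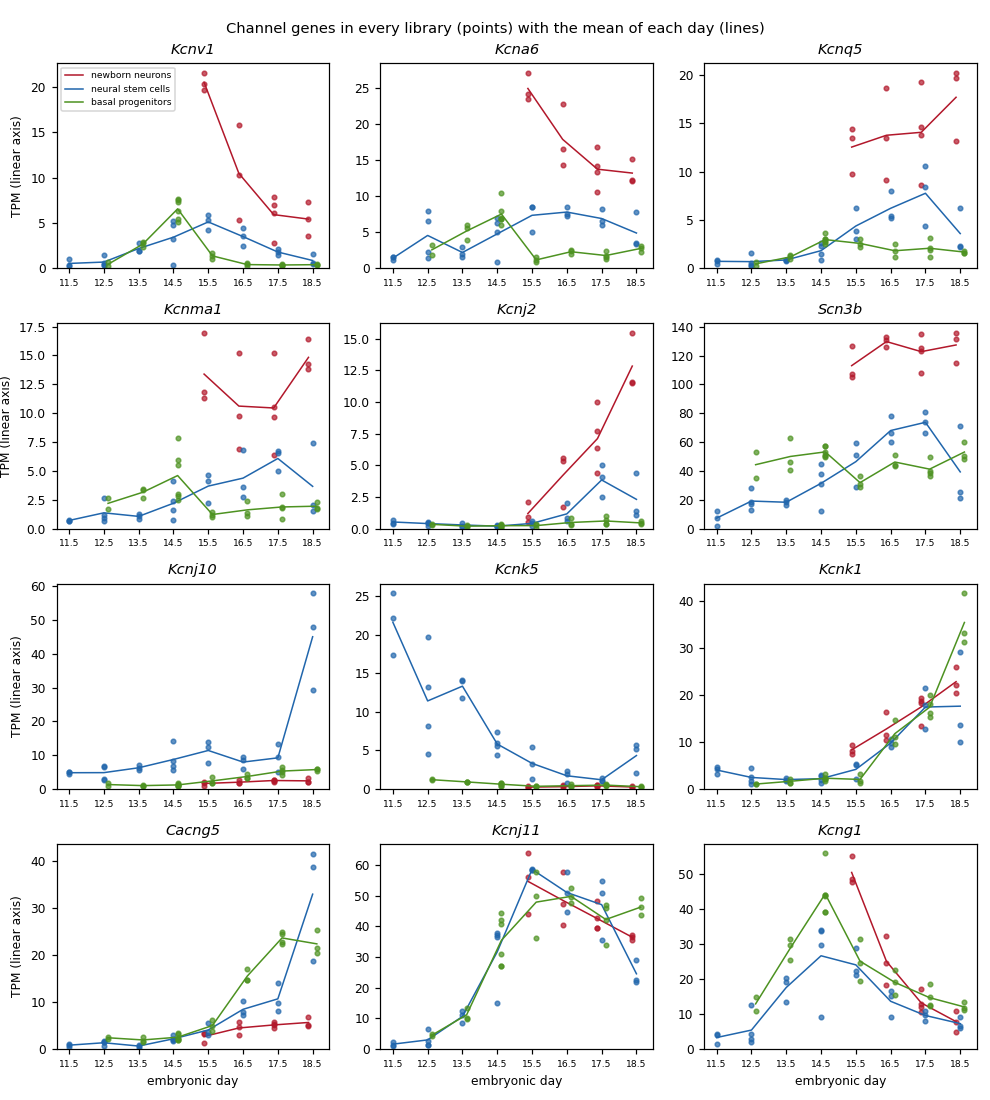
TPM of 12 channel genes in every library by embryonic day, with NBN in red, NSC in blue and BP in green and a line through the day means. Kcnv1, Kcna6, Kcnq5 and Kcnma1 separate all NBN libraries from all BP libraries of the same days, and Kcnj10 separates the NSC from the NBN libraries of the same days.

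The comparison of NBN with NSC used those 4 days too. Of the members, 12 rose in NBN (11.3%, against a background of 2.55% of all tested genes), and 4 fell (3.77%, against 6.11%). With quantile scaling the counts were 20 higher and 3 lower, and without E18.5 they were 7 and 3; the changes of Scn3b (0.99) and Cacng5 (-0.73) were then under the size of a call. The median log2 change was 0.45 over the members and -0.06 over all genes. All 12 and all 4, called from the mean of these same days, kept their direction on each of the 4 days. Kcnv1, Kcnab1, Kcnma1, Kcnq5, Kcna6 and Cacna1e rose by log2 changes of 1.53, 1.38, 1.35, 1.32, 1.24 and 1.53. This comparison shares its NBN libraries with the one above, so the changes in both are not independent.

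Scn3b measured 105 to 136 TPM (median 126) in NBN, against 21.1 to 80.6 TPM (median 63.1) in the 12 NSC libraries of those days (log2 change 1.21, SE 0.17, adjusted p = 2.04e-08). Kcna6 measured 3.42 to 8.58 TPM (median 7.43) in NSC, below its lowest NBN value of 10.6 TPM. The ranges of both genes were apart. Cacna2d2, an alpha2delta subunit, rose by 1.14 and Kcnk9, a leak channel pore, by 1.09. Lower in NBN than in NSC were Kcnj10, Kcne1l, Kcnk5 and Cacng5. Kcnj10, the inward rectifier known for potassium buffering by glia, measured 0.838 to 3.07 TPM (median 2.06) in NBN, against 4.85 to 58.0 TPM (median 10.99) in NSC, without overlap (log2 change -2.26, SE 0.14, adjusted p = 4.14e-19). Kcne1l measured 9.61 to 61.7 TPM (median 16.4) in NSC, above all NBN libraries (log2 change -2.04, SE 0.15, adjusted p = 4.28e-16). Kcnk5, a leak channel pore sensitive to external pH, measured 0.0479 to 0.511 TPM (median 0.302) in NBN, against 0.764 to 5.64 TPM (median 2.03) in NSC, also apart (log2 change -1.35, SE 0.14, adjusted p = 6.80e-12). All 8 neural stem cell markers fell with these genes, and so did 7 of the 8 interneuron markers, which summed to 43.3 to 318 TPM in NBN libraries and 79.7 to 811 TPM in NSC libraries. Of the astrocyte markers 4 of 6 fell (21.4 to 47.9 TPM in NBN, 34.8 to 480.5 TPM in NSC), of the oligodendrocyte lineage markers 4 of 7 (16.1 to 57.5 TPM in NBN, 17.4 to 567 TPM in NSC), and of the immediate early and dissociation genes 6 of 11 (133 to 381 TPM in NBN, 191 to 950.4 TPM in NSC). With the rises, 6 of the 8 Cajal-Retzius markers rose (198 to 344 TPM in NBN, 29.8 to 469 TPM in NSC). The part of all these in the channel values was not tested. The Cajal-Retzius list, here and in all comparisons below, holds Cacna2d2, itself a member. Its counts and sums therefore include a channel gene and are not independent of the members.

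**Figure D3:**
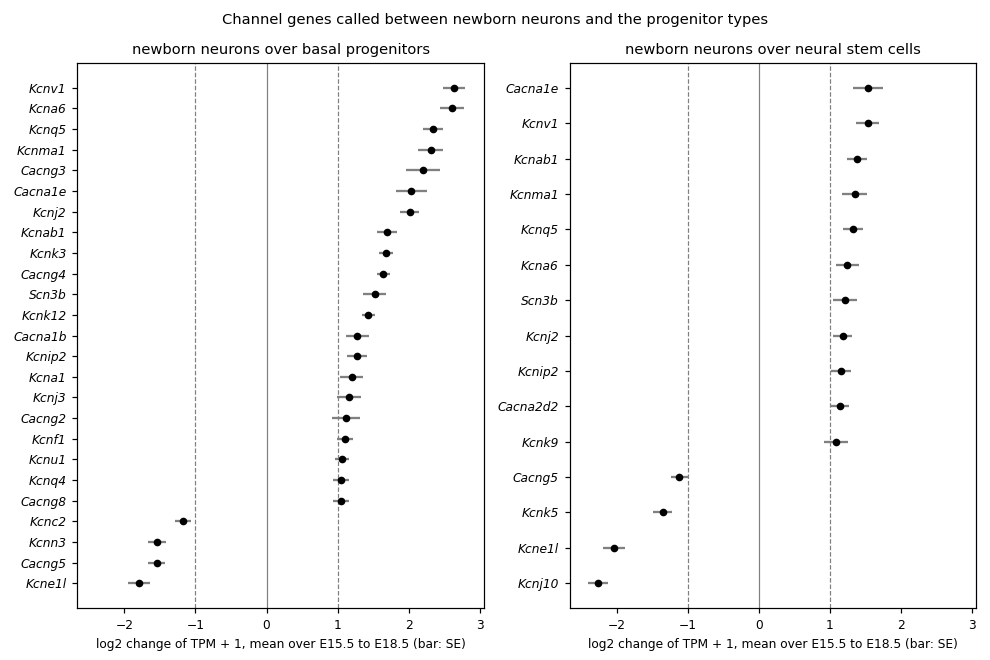
Log2 change in TPM + 1 with its standard error for 25 members called in NBN over BP and 15 called in NBN over NSC, with dashed lines at 1 and -1. Positive values are higher in NBN; Kcnv1 at 2.64 is the largest against BP and Kcnj10 at -2.26 the lowest against NSC.

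NSC and BP differed in few channel genes over the 7 days they share, E12.5 to E18.5. In NSC 3 members rose (2.83%, against a background of 2.56% of all tested genes, which is near the same share), and 0 fell, against 0.466%. With quantile scaling the counts were 3 and 1, and with the E12.5 to E14.5 libraries alone 2 and 10. In those early libraries 919 of the 15231 tested genes were called in either direction. At an unadjusted p under 0.05 without a limit on size, 23 were higher and 46 lower in NSC. That unadjusted count was not made over all tested genes, so it has no background share. The median log2 change was -0.17 over the members and 0.00 over all genes. Kcnk5 measured 0.764 to 19.6 TPM (median 5.19) in 23 NSC libraries, against 0.217 to 1.26 TPM (median 0.496) in 24 BP libraries (log2 change 1.76, SE 0.10, adjusted p = 5.96e-20). Kcnj10 measured 2.73 to 58.0 TPM (median 7.69) in NSC, against 0.823 to 6.40 TPM (median 1.80) in BP (log2 change 1.64, SE 0.10, adjusted p = 1.30e-18). Both ranges overlapped over the whole course, but the NSC mean was the higher on 7 of 7 days. Cacng3 was higher on 6 of 7 days (log2 change 1.31, SE 0.18, adjusted p = 3.30e-08). In the E12.5 to E14.5 libraries alone, its log2 change was 0.17 (adjusted p = 0.644). All 8 interneuron markers rose in NSC over BP as well, with sums of 79.7 to 811 TPM in NSC and 4.68 to 53.0 TPM in BP. So did 3 of 6 astrocyte markers (34.8 to 480.5 TPM in NSC, 19.7 to 111 TPM in BP), 3 of 7 oligodendrocyte lineage markers (17.4 to 567 TPM in NSC, 14.7 to 28.1 TPM in BP) and 3 of 11 immediate early and dissociation genes (191 to 950.4 TPM in NSC, 183 to 596 TPM in BP), while 6 of 8 Cajal-Retzius markers fell (29.8 to 469 TPM in NSC, 93.7 to 607 TPM in BP). Their part was not tested.

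Promoter sequence is given for 5 of these genes because they carry the contrast between the types: Kcnma1, Kcna6 and Kcnj2 were higher in NBN than in BP, and Kcnj10 and Kcnk5 were lower in NBN than in NSC. Each window runs from 250 bases before to 50 bases after a transcript start of the RefSeq annotation of GRCm38.p6 and is written 5′ to 3′ along the gene's strand, with CG dinucleotides in capitals. Kcnma1 lies at chr14:24004156-24004455 on the minus strand, Kcna6 at chr6:126740625-126740924 on the minus strand, and Kcnj2 at chr11:111065914-111066213 on the plus strand. In the annotation used for the exon overlap, Kcnma1 begins at 24014491 on its strand, so its window lies inside the gene. Kcnj10 lies at chr1:172340960-172341259 on the plus strand and Kcnk5 at chr14:20181733-20182032 on the minus strand.
Kcnma1: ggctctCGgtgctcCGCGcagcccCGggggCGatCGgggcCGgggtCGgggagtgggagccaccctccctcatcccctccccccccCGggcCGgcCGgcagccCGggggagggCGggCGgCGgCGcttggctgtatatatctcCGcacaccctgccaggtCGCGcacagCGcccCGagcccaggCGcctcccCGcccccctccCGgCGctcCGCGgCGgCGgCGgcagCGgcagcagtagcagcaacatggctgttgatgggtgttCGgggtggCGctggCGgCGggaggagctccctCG
Kcna6: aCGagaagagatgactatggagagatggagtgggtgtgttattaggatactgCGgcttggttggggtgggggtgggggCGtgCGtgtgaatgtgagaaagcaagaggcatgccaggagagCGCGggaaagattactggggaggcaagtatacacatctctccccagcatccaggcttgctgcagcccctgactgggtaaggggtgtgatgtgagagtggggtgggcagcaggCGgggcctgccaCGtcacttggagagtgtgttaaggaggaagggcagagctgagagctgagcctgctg
Kcnj2: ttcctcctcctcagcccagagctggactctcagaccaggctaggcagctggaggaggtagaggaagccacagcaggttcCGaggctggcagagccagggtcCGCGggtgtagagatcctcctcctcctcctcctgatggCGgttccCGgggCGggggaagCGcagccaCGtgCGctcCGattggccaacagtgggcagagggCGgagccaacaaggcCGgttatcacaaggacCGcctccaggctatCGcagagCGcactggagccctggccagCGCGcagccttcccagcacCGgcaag
Kcnj10: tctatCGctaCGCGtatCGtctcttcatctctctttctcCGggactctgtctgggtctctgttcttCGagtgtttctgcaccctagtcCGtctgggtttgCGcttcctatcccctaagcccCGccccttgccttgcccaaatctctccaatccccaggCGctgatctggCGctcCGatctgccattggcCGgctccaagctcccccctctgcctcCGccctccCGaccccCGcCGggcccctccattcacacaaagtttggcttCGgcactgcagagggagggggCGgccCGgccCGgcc
Kcnk5: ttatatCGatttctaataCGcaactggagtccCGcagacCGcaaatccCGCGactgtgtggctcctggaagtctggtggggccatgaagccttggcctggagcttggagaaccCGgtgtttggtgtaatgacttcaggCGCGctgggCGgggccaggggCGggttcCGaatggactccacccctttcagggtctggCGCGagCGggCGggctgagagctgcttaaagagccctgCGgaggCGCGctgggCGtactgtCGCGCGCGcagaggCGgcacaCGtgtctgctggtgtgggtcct

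The windows hold 36 CG dinucleotides in Kcnma1, 8 in Kcna6, 18 in Kcnj2, 21 in Kcnj10 and 26 in Kcnk5, so the lowest and the highest of these counts both belonged to genes higher in NBN than in BP. Windows were found for 76 of the 105 member symbols. Their 110 windows held a median of 11.5 CG dinucleotides, against 7 over all 32851 windows, and 60.7% G and C, against 52.7%. The E-box CAGCTG, a palindrome and so counted once for both strands, was in 27.3% of the member windows and in 16.3% of all windows; of the 5 shown, Kcnj2 holds 1. The motif TATAAA, searched on both strands, was in 5.45% of the member windows and 13.6% of all. A match describes letters in a window and is not a site.

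The course in NSC was the fitted slope over E11.5 to E18.5 multiplied by that span. Of the members, 48 rose over the course (45.3%, against a background of 14.8% of all tested genes), and 5 fell (4.72%, against 8.17%). The median log2 change was 0.92 over the members and 0.09 over all genes. Members of most classes took part: 6 of the 8 calcium channel pore subunits, 4 of the 4 M-current subunits, 4 of the 7 calcium- and sodium-activated channel pores and 6 of the 11 potassium channel accessory subunits rose, with no member of these classes lower. The sodium channel pores went both ways, with 2 higher and 2 lower. In the same course 3 of the 8 neuron markers, 5 of the 7 oligodendrocyte lineage markers, 8 of the 9 microglia markers and 5 of the 6 astrocyte markers rose. In it 6 of the 8 neural stem cell markers fell and 2 rose, with summed medians of 2480 TPM at E11.5, 1269 TPM at E17.5 and 6655 TPM at E18.5, and 5 of the 8 Cajal-Retzius markers fell, with medians of 181 TPM at E11.5 and 43.9 TPM at E18.5. The part of these in the channel values was not tested.

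Kcnj11, the pore of ATP-sensitive potassium channels, had the largest course (log2 change 4.11, SE 0.20, adjusted p = 7.10e-23). It measured 1.07, 1.46 and 2.29 TPM at E11.5, 58.5, 58.5 and 58.7 TPM at E15.5 and 29.0, 22.0 and 22.6 TPM at E18.5, so the highest of these days was the middle one. Cacng5 measured 0.471, 1.09 and 0.949 TPM at E11.5, 8.18, 14.0 and 9.93 TPM at E17.5 and 18.7, 38.7 and 41.7 TPM at E18.5 (log2 change 4.07, SE 0.18, adjusted p = 2.79e-24). All of its later libraries given here lay above all of the E11.5 libraries. Kcnk2, a mechanosensitive leak channel, measured 6.13, 6.34 and 8.90 TPM at E11.5 and 52.2, 47.6 and 53.9 TPM at E18.5 (log2 change 2.81, SE 0.12, adjusted p = 1.85e-24).

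The L-type calcium channel pores Cacna1d and Cacna1c, which link depolarisation to gene expression, rose by 3.00 and 2.82. The M-current subunit Kcnq3 rose by 3.36, Scn3b by 2.67, and Kcnn3 by 2.75. Kcnc1, a pore of fast-spiking Kv3 channels, rose by 2.69. Kcnj10 rose by 2.16. It measured 4.85, 13.23 and 9.48 TPM at E17.5 and 29.3, 48.0 and 58.0 TPM at E18.5, so its highest libraries were all of the last day. Astrocyte markers had a summed median of 383 TPM in NSC at E18.5 (275.5 to 480.5) and of 34.8 to 146.7 TPM in the other NSC groups, and oligodendrocyte lineage markers one of 378 TPM at E18.5 (288 to 567); their part in the Kcnj10 values was not tested.

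Among those lower over the NSC course were Kcnk5, Cacna2d2, Kcnj5 and Scn11a. Kcnk5 measured 25.4, 22.1 and 17.4 TPM at E11.5, 1.03, 1.04 and 1.45 TPM at E17.5 and 2.11, 5.64 and 5.19 TPM at E18.5 (log2 change -2.91, SE 0.21, adjusted p = 7.35e-17). Its E18.5 libraries lay above those of E17.5 and below those of E11.5. Cacna2d2 fell by 2.20 on the log2 scale, Kcnj5, a G-protein-gated inward rectifier subunit, by 2.05, and Scn11a, a sodium channel pore known from sensory neurons, by 1.51.

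The last 2 days of NSC were set side by side as values. The 3 libraries of E18.5 lay all above those of E17.5 for 15 members, all below for 15, and overlapped for 76. This split was not made over all tested genes, so whether the counts are particular to channel genes is unknown. Kcnj10 averaged 45.1 TPM at E18.5 and 9.19 TPM at E17.5, Kcnk5 4.32 and 1.17 TPM, Kcne1l 51.5 and 16.6 TPM, and Cacng5 33.0 and 10.7 TPM. Kcnip3, a calcium-binding partner of Kv4 channels, averaged 71.2 TPM at E18.5 and 31.6 TPM at E17.5. In the other direction, Cacnb3 averaged 99.4 TPM at E18.5 and 187 TPM at E17.5, and Kcnj11 24.5 and 47.1 TPM. The neuron markers summed to a median of 2908 TPM at E18.5 and 5115 TPM at E17.5 in NSC.

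Over the BP course, E12.5 to E18.5, 15 members rose (14.2%, against a background of 6.90% of all tested genes), and 11 fell (10.4%, against 4.39%). With quantile scaling the counts were 13 and 15. The median log2 change was 0.07 over the members and 0.09 over all genes. Of the 8 leak channel pores 4 rose and 0 fell. In 2 of the 3 alpha2delta subunits, 2 of the 6 sodium channel pores, 2 of the 8 EAG, ERG and ELK subunits and 2 of the 10 Kv2 subunits and silent partners, the level fell. Neuron markers fell as well, 4 of 8, and so did 5 of the 8 Cajal-Retzius markers while 1 rose; these had a summed median of 598 TPM in BP at E12.5. Of the 9 endothelial and pericyte markers 7 rose, with sums of 2.15 and 2.25 TPM at E12.5 and 7.65 to 23.9 TPM at E18.5. Astrocyte markers rose in 3 of 6 cases, neural stem cell markers in 3 of 8 with 1 lower, and erythroid markers in 4 of 5 with 1 lower. The part of all these cells in the channel courses was not tested.

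Kcnk1, a weakly rectifying leak channel, had the largest course in BP (log2 change 4.31, SE 0.23, adjusted p = 1.27e-20). It measured 0.990 and 1.04 TPM at E12.5, 3.08, 1.70 and 1.21 TPM at E15.5, 11.001, 14.7 and 9.50 TPM at E16.5 and 31.3, 33.3 and 41.7 TPM at E18.5. The rise thus lay between E15.5 and E18.5. Cacng5 measured 2.58 and 2.25 TPM at E12.5 and 25.3, 20.4 and 21.6 TPM at E18.5 (log2 change 3.59, SE 0.20, adjusted p = 7.76e-20). Kcnj11 measured 4.82 and 4.21 TPM at E12.5, 49.8, 57.6 and 36.3 TPM at E15.5 and 43.5, 49.1 and 46.1 TPM at E18.5 (log2 change 2.89, SE 0.22, adjusted p = 4.99e-15). For both genes every E18.5 library lay above every E12.5 library. Kcnk2, Kcnj10, Kcnn3, Kcnq3 and Cacna1d rose by 2.04, 1.97, 2.46, 1.88 and 1.69.

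Kcnj5 measured 11.7 and 13.53 TPM at E12.5 and 1.26, 1.71 and 1.56 TPM at E18.5 in BP (log2 change -2.66, SE 0.24, adjusted p = 1.01e-12). Its E12.5 libraries lay far above its E18.5 libraries. The alpha2delta genes Cacna2d1 and Cacna2d2, at 132 and 137 TPM and 66.5 and 64.6 TPM at E12.5, fell by 1.34 and 1.69 on the log2 scale. Kcnf1, Kcnh4 of the ELK subunits, Kcna3 of the Shaker type and Kcnip1, a partner of Kv4 channels, fell by 1.80, 1.76, 1.44 and 1.23. Of the members, 13 were higher over the course in both NSC and BP and 3 were lower in both. Joint counts of this kind were not made over all tested genes, so they are not a result particular to channels. Kcnip1 was the 1 member called higher in NSC and lower in BP.

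**Figure D4:**
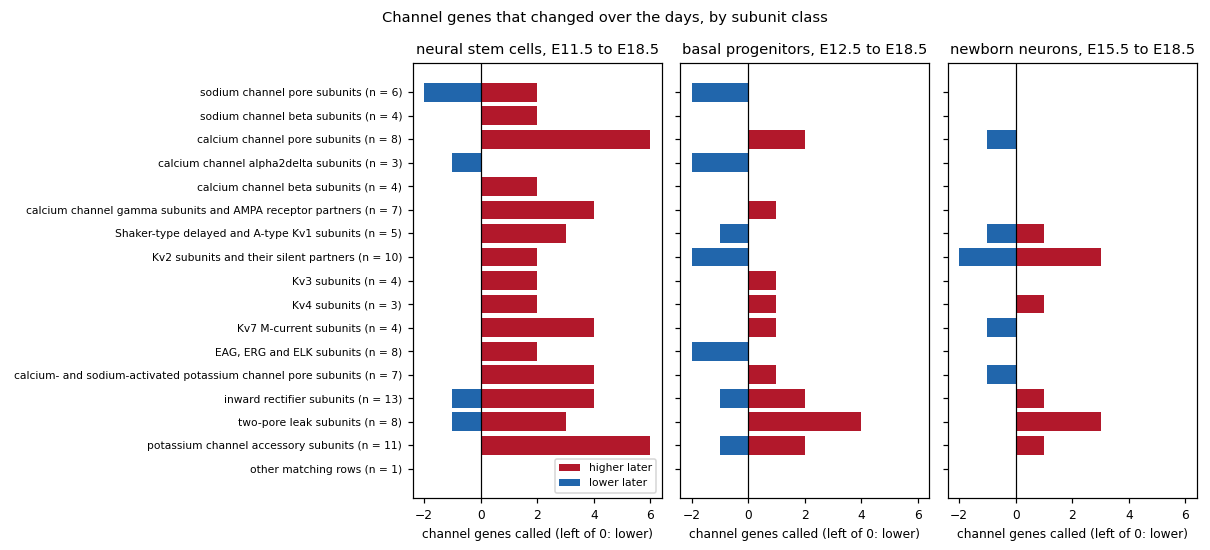
Number of members called higher and lower over the course in NBN (E15.5 to E18.5), NSC (E11.5 to E18.5) and BP (E12.5 to E18.5), by subunit class. NSC shows 48 higher and 5 lower, BP 15 and 11, and NBN 10 and 6.

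Over the NBN course, E15.5 to E18.5, 10 members rose (9.43%, against a background of 3.30% of all tested genes), and 6 fell (5.66%, against 1.44%). The median log2 change was 0.05 over the members and 0.04 over all genes. Without E18.5 the counts were 4 and 6. Kcnj2 had the largest course (log2 change 2.66, SE 0.26, adjusted p = 5.71e-11). It measured 0.926, 0.502 and 2.13 TPM at E15.5, 5.55, 5.30 and 1.71 TPM at E16.5, 10.001, 4.37, 7.68 and 6.36 TPM at E17.5 and 15.4, 11.6 and 11.5 TPM at E18.5. Every E18.5 library lay above every earlier one. The microglia markers, of which 8 of 9 rose in this course, summed to 6.91, 4.54 and 5.67 TPM at E15.5, 9.23, 36.7 and 92.8 TPM at E16.5, 31.6, 83.8, 42.8 and 128 TPM at E17.5, and 119, 143 and 106 TPM at E18.5. In NSC at E17.5 they summed to 330, 35.5 and 21.1 TPM, where Kcnj2 measured 2.46, 4.03 and 5.01 TPM. The part of microglia RNA in the Kcnj2 values was not tested. Of the 6 basal progenitor markers 5 fell in the NBN course, with summed medians of 375 TPM at E15.5 and 163 TPM at E18.5, and their part in it was not tested either. Also in this course 3 of 6 astrocyte and 3 of 7 oligodendrocyte lineage markers rose, and their part was not tested.

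The leak channel pores Kcnk9, Kcnk1 and Kcnk2 rose by 1.80, 1.35 and 1.17 in NBN, 3 of the 8 members of that class. Kcnk1 measured 8.12, 9.29 and 7.49 TPM at E15.5 and 20.5, 22.1 and 25.9 TPM at E18.5. Kcnf1 measured 1.12, 0.922 and 1.50 TPM at E15.5 and 6.72, 6.27 and 8.24 TPM at E18.5 (log2 change 1.74, SE 0.22, adjusted p = 5.87e-08). Its libraries of these days did not overlap. In BP the same gene measured 5.32, 7.34 and 6.98 TPM at E13.5 and 0.792, 1.02 and 0.988 TPM at E18.5, and it was the 1 member called higher in NBN and lower in BP. The silent subunit gene Kcns1 rose by 1.55, Kcnmb2, a beta subunit of the large-conductance calcium-activated channel, by 1.33, and Kcnd2, a pore of the A-type current, by 1.25. The 3 members called higher in the courses of all 3 types were Kcnk1, Kcnk2 and Kcnd2. Without E18.5 the NBN call of Kcnk2 was kept, and those of Kcnk1 and Kcnd2 were lost. The change of Kcnd2 was then 0.52 (adjusted p = 0.275). Those of Kcnk1 (0.98), Kcns1 (0.96) and Kcnmb2 (0.95) were then just under the size of a call.

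Lower over the NBN course was Kcng1, a silent subunit, with 48.5, 55.2 and 47.8 TPM at E15.5 and 7.77, 11.02 and 4.82 TPM at E18.5 (log2 change -2.60, SE 0.33, adjusted p = 4.50e-08). Kcnv1 measured 20.3, 19.7 and 21.6 TPM at E15.5 and 5.42, 7.27 and 3.58 TPM at E18.5 (log2 change -1.81, SE 0.31, adjusted p = 2.04e-05). Both genes had all E15.5 libraries above all E18.5 libraries. Kcna1, a Shaker-type pore, fell by 1.46 and Kcnt2, a sodium-activated channel pore, by 1.08. The calls of Kcnq3 (adjusted p = 0.0305) and Cacna1e (adjusted p = 0.0444) were lost on leaving out single libraries, in 7 and 9 of 13 cases, and that of Kcnt2 in 2.

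**Figure D5:**
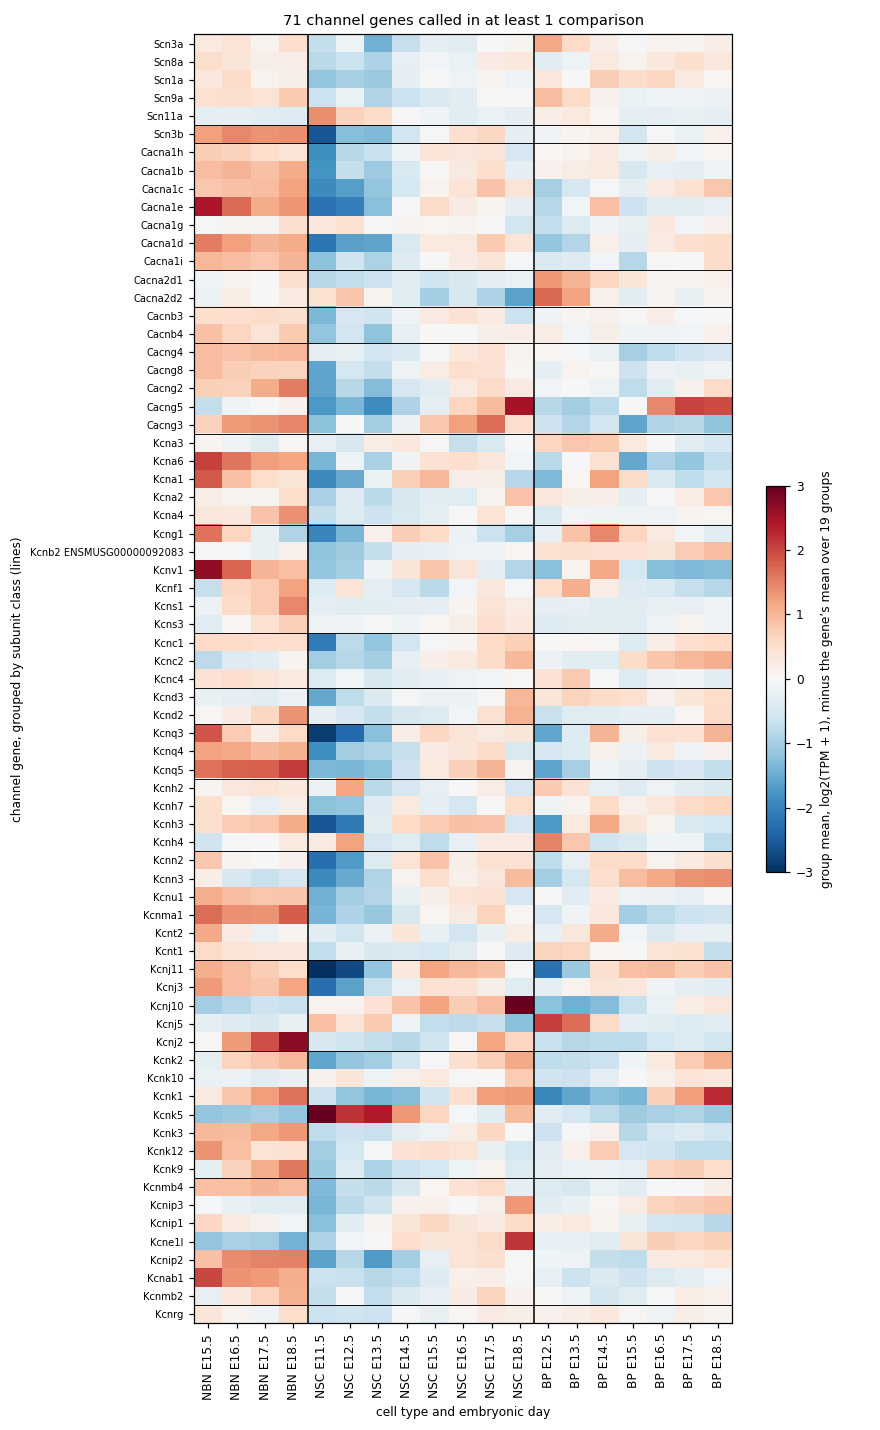
Group mean log2(TPM + 1) minus the gene's mean over the 19 groups for 71 members called in at least 1 comparison, in columns for NBN, NSC and BP by embryonic day, with lines between subunit classes. Of all 106 members, 60 have their highest group mean in an NBN column, and Kcnk5 and Kcnj10 are among those highest in an NSC column. The count of 60 was not made over all tested genes.

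The courses were compared directly where days are shared. From E12.5 to E18.5, the course in NSC lay above that in BP for 31 members (29.2%, against a background of 6.86% of all tested genes), and below it for 3 (2.83%, against 3.66%). The median difference was 0.67 over the members and 0.00 over all genes. With the last day minus the first day in place of the slope, it was 0.40 over the members and 3 were called in each direction. Of the 8 neuron markers, 5 also had the higher course in NSC, as did 5 of 7 oligodendrocyte lineage, 6 of 9 microglia and 3 of 6 astrocyte markers. The lower one was found for 5 of 8 neural stem cell and 2 of 8 Cajal-Retzius markers. The part of all these markers was not tested. Cacng3, Kcnma1 and Kcnip1 had the largest differences, 2.35, 2.00 and 1.90 on the log2 scale. Kcnf1, Cacna2d1, the embryonic sodium channel pore Scn3a, Cacna1e and Kcnj3 followed with 1.84, 1.81, 1.74, 1.71 and 1.66. The course was lower in NSC for the T-type calcium channel pore Cacna1g (-1.58), Kcnk5 (-1.50) and Kcnk1 (-1.27). With the last day minus the first day, the values were 1.23 for Cacng3 (adjusted p = 0.314), 0.94 for Kcnma1 (0.297), 0.89 for Kcnf1 (0.10), 1.21 for Scn3a (0.292), 0.90 for Cacna1e (0.424), 1.33 for Kcnj3 (0.096), 1.77 for Cacna2d1 (0.0752) and -0.36 for Kcnk5 (0.634), so these 8 were not called there, and Kcnip1, Cacna1g and Kcnk1 were. Kcnk1 was not called without E18.5 (-0.56, adjusted p = 0.154).

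From E15.5 to E18.5, the course in NBN lay above that in BP for 4 members (3.77%, against a background of 1.02% of all tested genes), and below it for 9 (8.49%, against 1.38%). The median difference was -0.17 over the members and -0.12 over all genes. With quantile scaling the counts were 5 and 3, and with median-of-ratios scaling 4 and 4. Between 4 and 14 members were called when single libraries were left out, without BP E15.5 replicate 2 the number was 4. Of the 9 microglia markers 8 had the higher course in NBN, and of the 6 basal progenitor markers 4 had the lower one (median difference -1.33); their part was not tested. Kcnj2 and Kcnf1 differed by 2.41 and 2.17, the ELK subunit gene Kcnh3 by 1.58 and Kcns1 by 1.36. Kcnk1 and Kcnq3 differed by -2.09 and -2.08. The call of Kcnq3 was lost without 21 of the 26 libraries, left out in turn, and that of Kcnh3 without 17. The calls of Kcnf1, Kcnj2, Kcns1 and Kcnk1 were kept whichever library was left out. That of Kcns1 was lost without E18.5 (0.89) and with a pseudocount of 5 (0.48).

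Calls were also counted per member, a count that was not made over all tested genes. Of the 106, 31 were called in none of the 8 comparisons and 22 in 1 only, against 1 called in 6. In the NSC course 50% of the members were called in either direction, against 23.0% of all tested genes. In NSC over BP these shares were 2.83% and 3.03%. Cacng7, the second most abundant member, was called in none. Its group means averaged 153 TPM in NBN, 119 TPM in NSC and 113 TPM in BP. This average and the type means that follow here cover all days of each type, which are not the same days. Cacnb1 was not called either (78.9 TPM in NBN, 48.6 TPM in NSC and 62.2 TPM in BP), nor was the sodium channel beta subunit Scn2b (7.77 TPM in NBN, 3.64 TPM in NSC and 4.63 TPM in BP). By these means over unlike days the genes were highest in NBN, without a call on the shared days. The sodium channel pores Scn1a and Scn8a, both known as spike-generating channels of mature neurons, rose in the NSC course alone of the 8 comparisons, by 1.26 and 1.21. Their means were 5.69 and 14.8 TPM in NBN, 3.13 and 9.73 TPM in NSC, and 6.13 and 13.25 TPM in BP. Also called in the NSC course alone were Kcnn2, a small-conductance calcium-activated channel (2.67), the T-type pore Cacna1h (1.58) and Kcnmb4, a beta subunit of the large-conductance calcium-activated channel (1.47). Kcnd3, a pore of the A-type current, rose in NSC by 1.95 and averaged 16.4 TPM in NBN, 18.3 TPM in NSC and 27.2 TPM in BP. The ERG pore Kcnh2 fell by 1.09 in BP, and the leak channel pore Kcnk10 rose there by 1.13.

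The channel partners list held 25 genes that scaffold, anchor or modulate ion channels or repress their genes, of which 24 were tested. The list was chosen with earlier results of these data known. In NBN over BP 9 rose (background 5.75% of all tested genes) and 1 fell (5.09%), with a median log2 change of 0.75. In NBN over NSC 3 rose (background 2.55%) and 1 fell (6.11%), with a median of 0.34. In NSC over BP 1 rose (background 2.56%) and 0 fell (0.466%), with a median of -0.09. Sptbn4, a spectrin that anchors sodium and M-current channels at the axon initial segment, rose by 1.74 in NBN over BP, Dpp6, a Kv4 partner, by 1.71, and Lgi1, a secreted protein that acts on Kv1 channels and AMPA receptors, by 1.60. Fgf14, a sodium channel binding factor, rose by 1.05 in NBN over NSC. Rcor2, a co-repressor of the REST complex, fell by 1.66 in NBN over BP and by 1.04 in NBN over NSC. Rest, the repressor that keeps many neuronal channel genes silent outside neurons, rose by 1.07 in NSC over BP and by 1.14 in NBN over BP, and its log2 change in NBN over NSC was -0.06 (adjusted p = 0.806).

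Of the 24 partners tested, 14 rose over the NSC course (background 14.8% of all tested genes) and 2 fell (8.17%), with a median of 1.39. Over the BP course 3 rose (background 6.90%) and 4 fell (4.39%), with a median of 0.08. Over the NBN course 2 rose (background 3.30%) and 2 fell (1.44%), with a median of 0.13. The course was higher in NSC than in BP for 8 (background 6.86%) and lower for 0 (3.66%). It was lower in NBN than in BP for 1 (background 1.38%). In NSC, Sptbn4, Fgf12 and Hcn2 rose by 3.14, 2.59 and 2.54; Fgf12 binds sodium channels and Hcn2 is a pore of the hyperpolarisation-activated current. Hcn2 also rose by 2.06 in BP and 1.61 in NBN. Rest fell by 1.74 in NSC and 1.66 in BP, and Cntnap2, which clusters Kv1 channels along axons, fell by 2.67 in NSC, 3.62 in BP and 1.00 in NBN. Rest averaged 21.5 TPM in NSC at E11.5 and 7.91 TPM at E18.5, and 6.35 TPM in BP at E12.5 and 1.81 TPM at E18.5. Rest was thus lower at the last day than at the first in both progenitor types.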

How the data were processed

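RNA was measured in 63 libraries in 19 groups of sorted cortical cells. The deposited values are TPM per gene, made by the authors with kallisto 0.43.0, per the submitters' processing notes. The same notes also list mm10 and GRCm38.p2 as builds. Per the labels, cells were dissociated with papain, RNA was taken with TRIzol, and TruSeq RNA v2 libraries were sequenced in single reads; that kit keeps no strand. Read counts were not used here, so depth per library is unknown, no counting error or floor is given, and only the spread between libraries gives the precision.

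Values were taken as log2(TPM + 1), which understates changes of low genes. A gene was tested if 3 or more libraries had 1 TPM or more. In R 4.3.3, limma 3.58.1 fitted 1 mean per group over the 63 libraries, with a variance trend on mean level, and p-values were adjusted by Benjamini-Hochberg over all 15231 genes. A call needed an adjusted p below 0.05 together with a log2 change of 1 or more in either direction. Types were compared as the mean of the differences on shared days, and courses as the fitted slope times the span. Summed TPM of marker lists were compared by their ranges. The scripts were tested on simulated data with known changes. The alternatives tried were other pseudocounts, filters, scalings, library weights, courses from first to last day, a replicate block, and fits without single libraries or days.

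Members and lists were chosen with earlier results of these data known. Named are the members called with the up to 8 largest changes in each direction of a comparison, the 2 highest members of each subunit class, a set of 20 well-known channel genes, and those nearest the level threshold; of the partner genes, the up to 3 largest called changes in each direction. Some members are counted in the totals but not reported here by name.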

Additional observations from a re-analysis of the deposited data

Results flagged for a closer look

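Combinations of a group of 4 or more libraries and 1 of 61 named members numbered 305. In 19 of them a library stood far from the rest of its group by Dixon's criterion. Chance alone would meet it in about 1 of 20, and the 19 are near that share. Some libraries stood out for more than 1 gene. Of these, 4 came from BP E17.5 replicate 2, 3 from BP E17.5 replicate 4 and 3 from NSC E12.5 replicate 3. In BP E17.5 replicate 2, Scn3a was at 13.22 TPM (others 34.2 to 37.6), Kcna3 at 3.801 TPM (others 11.3 to 11.96), Cacna2d2 at 14.1 TPM (others 17.0 to 17.2) and Kcnk2 at 37.74 TPM (others 40.4 to 40.6). In BP E17.5 replicate 4, Cacna1b was at 23.63 TPM (others 12.8 to 13.7), Kcnk9 at 6.048 TPM (others 1.60 to 1.86) and Cacna1g at 14.91 TPM (others 9.41 to 9.72). Replicate 2 was the low library for the first 4 of these genes, and replicate 4 the high one for the other 3. In NSC E12.5 replicate 3, Kcnj3 was at 7.614 TPM (others 1.55 to 2.31), Kcna1 at 1.974 TPM (others 0.126 to 0.229) and Kcnh4 at 3.438 TPM (others 11.4 to 12.7). In NSC at E14.5, Cacna2d1 was at 21.68 TPM in replicate 2 (others 49.0 to 52.0), Kcnj11 at 15.15 TPM in replicate 1 (others 36.7 to 37.8) and Kcnf1 at 2.091 TPM in replicate 3 (others 1.26 to 1.35). In BP at E14.5, Kcng1 was at 55.97 TPM (others 39.2 to 44.0) and Cacng3 at 2.996 TPM (others 0.286 to 1.27) in replicate 1, and Kcnk1 at 3.131 TPM in replicate 3 (others 1.76 to 2.24). In NBN at E17.5, Scn3a was at 45.86 TPM in replicate 1 (others 23.0 to 26.9), Kcnj5 at 1.806 TPM in replicate 2 (others 1.11 to 1.19) and Kcnf1 at 6.261 TPM in replicate 3 (others 4.46 to 4.68).

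Courses that differed between types by the test of the difference itself (limma, Benjamini-Hochberg adjusted p under 0.05) are given on the log2 scale. The course in NSC minus that in BP was 2.354 for Cacng3, 2.005 for Kcnma1, 1.901 for Kcnip1, 1.843 for Kcnf1, 1.814 for Cacna2d1, 1.736 for Scn3a, 1.712 for Cacna1e and 1.659 for Kcnj3. It was -1.584 for Cacna1g, -1.496 for Kcnk5 and -1.268 for Kcnk1. Of these 11 calls, 8 were lost with the last day minus the first day, as given with their values, and 3 without NSC E12.5, an alternative chosen after seeing the data: Cacna2d1 (1.25, adjusted p = 0.0656), Cacna1e (1.30, adjusted p = 0.0585) and Kcnj3 (0.99, adjusted p = 0.0477). The course in NBN minus that in BP was 2.412 for Kcnj2, 2.173 for Kcnf1, 1.577 for Kcnh3 and 1.357 for Kcns1. It was -2.09 for Kcnk1, -2.084 for Kcnq3, -1.607 for Kcng1, -1.529 for Kcna6, -1.288 for Cacna1d, -1.242 for the T-type calcium channel pore Cacna1i, -1.181 for Kcnn3 and -1.083 for Kcnc1. Of these, the calls of Kcnf1, Kcnj2, Kcns1 and Kcnk1 in NBN against BP were kept whichever library was left out, and those of the other 8 were lost without at least 1 library: 21 of 26 libraries for Kcnq3, 18 for Cacna1d and for Kcnn3, 17 for Kcnh3, 16 for Kcna6, 13 for Kcnc1, 11 for Kcng1 and 7 for Cacna1i. The call of Kcns1 was lost without E18.5 (0.89) and with a pseudocount of 5 (0.48). Kcnj2 and the microglia markers rose together over the NBN course, as given with its values, and a part of microglia RNA in it was not tested.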

How the results depend on the processing

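No named call changed sign under any alternative run. Of 93 named calls, 43 were kept under all alternatives other than left-out libraries, and 82 with every library left out. Called members changed as follows. With a pseudocount of 0.1 there were 43 in NBN over BP, 33 in NBN over NSC, 10 in NSC over BP, 40 in the BP course and 7 in the NBN course minus the BP course. With a pseudocount of 5 there were 12, 4, 0, 14 and 7 in the same order, 32 in the NSC course, 8 in the NBN course and 13 in the NSC course minus the BP course. With a mean of at least 5 TPM, which leaves 53 members, there were 15, 9 and 1 in NBN over BP, NBN over NSC and NSC over BP, 6 in the NBN course, and 21 and 4 in the NSC and NBN courses minus the BP course. Last day minus first day gave 6 (3 higher and 3 lower) and 7 (3 and 4) for these differences, against 31 and 3, and 4 and 9, as reported. For the NBN course minus the BP course (13 called), quantile and median-of-ratios scaling gave 8 each, library weights 20 and no filter 5. Quantile scaling moved the median of all genes in the NSC course to -0.07, against 0.09 as reported. Without E18.5 there were 10 in NBN over NSC, 10 in the NBN course and 4 in the NBN course minus the BP course. An alternative chosen after seeing the data, E12.5 to E14.5 only, gave 12 in NSC over BP, with 919 called over all tested genes. The cause of these shifts was not tested.

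Leaving out single libraries gave 27 to 30 in NBN over BP, 15 to 19 in NBN over NSC, 3 to 4 in NSC over BP, 51 to 59 in the NSC course, 24 to 28 in the BP course, 13 to 17 in the NBN course, 25 to 39 in the NSC course minus the BP course and 4 to 14 in the NBN course minus the BP course. The last fell to 8 or fewer without any 1 of BP E15.5 replicates 1 to 3, BP E16.5 replicate 3, BP E17.5 replicates 1 and 4, BP E18.5 replicates 1 to 3, NBN E15.5 replicates 1 to 3 or NBN E18.5 replicates 1 to 3. With the replicate number as a block, 27 were called in NBN over BP, 16 in NBN over NSC, 3 in NSC over BP, 52, 25 and 16 in the NSC, BP and NBN courses, and 32 and 17 in the NSC and NBN courses minus the BP course; of the named members, Kcnk1 in the NSC course minus the BP course was then not called (-0.95, adjusted p = 0.0733). Same-numbered libraries deviated together (r over 0.1) in 12 of 13 pairs of NBN and BP, 6 of 12 of NBN and NSC and 7 of 21 of NSC and BP, where pairing was taken to need every pair. NBN and BP missed this by 1 pair (r = -0.149, median 0.369), so the numbers may mark something shared there, which the labels do not state.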
